A study of Mus musculus with 4 samples.

Results

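The genes described here are 49 named components of Wnt signalling, chosen by their known roles and with earlier results of these data known: 9 Wnt ligands, 15 receptors and coreceptors, 6 genes of the R-spondin arm, 7 secreted antagonists, 6 genes of the beta-catenin core with its nuclear partners, 4 feedback targets and 2 genes of planar cell polarity. A gene was represented by its brightest probe set among those that the platform annotation assigns to that gene alone. By this rule 48 of the 49 had a probe set, out of 18193 genes on the array, and Tcf7 was not analysed here. After the filter on dim signals 45 were tested, and the probe sets of Fzd9, Rspo4 and Rnf43 fell below it. RNA came from the autopod, the hand and foot plate of the limb bud, of C57BL/6 mouse embryos at E11.25, cut to the Hoxd13 expression domain and taken from forelimbs and hindlimbs together. The Hox13dKO group (2 arrays) was homozygous for the Hoxa13 null allele and for HoxDdel, a deletion of Hoxd11, Hoxd12 and Hoxd13. The control group (2 arrays) was wild type, and neither group received an agent. Titles call the arrays of a group biological replicates, and the number of embryos behind each was not given in the sources used here.

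Wnt proteins are secreted lipid-modified ligands that bind Frizzled receptors. With the coreceptors Lrp5 or Lrp6 they stabilise beta-catenin, which enters the nucleus and switches on targets together with TCF and LEF proteins. With Ror1, Ror2 or Ryk they steer cell polarity and movement instead, and Wnt5a through Ror2 is the textbook case in the outgrowing limb. Ectodermal Wnts keep the underlying limb mesenchyme proliferating and undifferentiated, Wnt3 is needed for the apical ridge, and Wnt7a gives the dorsal side its identity.

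Promoter sequences are shown for 6 of these genes so that the letters can be set beside the values. Ror1, Fzd4 and Dkk2 had the largest differences between the groups of the 45. Sp5, Wnt11 and Wnt5b were the only ones of the 32 matched genes with a full TCF/LEF motif. The sequences are RefSeq promoters of build GRCm38.p6, from 250 bases before to 50 bases after a gene's start, printed 5′ to 3′ on the gene's strand. All 6 genes lie on the plus strand except Wnt5b. Ror1 is chr4:100095541-100095840, Fzd4 is chr7:89404116-89404415 and Dkk2 is chr3:132085042-132085341. Sp5 is chr2:70474673-70474972, Wnt11 is chr7:98834862-98835161 and Wnt5b is chr6:119449337-119449636. In the first 3 sequences capitals mark the core CTTTG, and in the last 3 they mark CTTTGAT, which contains that core, each read on either strand.
Ror1: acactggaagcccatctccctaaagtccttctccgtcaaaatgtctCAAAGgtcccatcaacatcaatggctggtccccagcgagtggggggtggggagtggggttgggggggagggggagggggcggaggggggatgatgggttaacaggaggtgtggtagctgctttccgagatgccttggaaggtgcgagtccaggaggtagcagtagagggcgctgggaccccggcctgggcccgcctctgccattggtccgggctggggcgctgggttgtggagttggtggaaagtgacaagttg
Fzd4: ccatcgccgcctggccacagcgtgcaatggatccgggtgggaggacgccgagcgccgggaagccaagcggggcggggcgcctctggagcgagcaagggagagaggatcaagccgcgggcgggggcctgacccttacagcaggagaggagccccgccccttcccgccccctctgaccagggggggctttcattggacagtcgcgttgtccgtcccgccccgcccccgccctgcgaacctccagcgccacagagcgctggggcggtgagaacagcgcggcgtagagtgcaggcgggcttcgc
Dkk2: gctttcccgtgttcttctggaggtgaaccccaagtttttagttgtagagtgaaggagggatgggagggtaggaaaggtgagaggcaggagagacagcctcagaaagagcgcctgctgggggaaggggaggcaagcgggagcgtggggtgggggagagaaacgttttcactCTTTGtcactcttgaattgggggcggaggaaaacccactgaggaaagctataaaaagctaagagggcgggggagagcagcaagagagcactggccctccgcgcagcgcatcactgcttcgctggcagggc
Sp5: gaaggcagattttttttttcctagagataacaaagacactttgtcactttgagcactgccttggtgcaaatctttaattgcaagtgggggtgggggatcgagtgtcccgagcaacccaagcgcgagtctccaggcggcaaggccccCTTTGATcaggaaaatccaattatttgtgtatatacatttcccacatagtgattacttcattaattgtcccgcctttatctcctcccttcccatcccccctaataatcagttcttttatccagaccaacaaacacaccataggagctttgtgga
Wnt11: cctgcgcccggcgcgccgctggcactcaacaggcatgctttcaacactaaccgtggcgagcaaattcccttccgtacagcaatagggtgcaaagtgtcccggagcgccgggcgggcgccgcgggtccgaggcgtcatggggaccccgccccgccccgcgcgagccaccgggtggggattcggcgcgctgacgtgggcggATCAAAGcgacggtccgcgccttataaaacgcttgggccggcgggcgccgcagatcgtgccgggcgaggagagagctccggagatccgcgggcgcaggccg
Wnt5b: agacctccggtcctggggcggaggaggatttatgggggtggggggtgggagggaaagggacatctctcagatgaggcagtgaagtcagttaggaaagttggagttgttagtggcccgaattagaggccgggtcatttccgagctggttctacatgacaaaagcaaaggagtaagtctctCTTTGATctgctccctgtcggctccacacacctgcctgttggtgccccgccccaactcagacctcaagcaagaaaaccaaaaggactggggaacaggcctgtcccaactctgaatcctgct

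The full motif CTTTGAT stood in 3 of 43 promoters of the 32 matched genes (6.98%) and in 3.73% of all 32851 promoters of this length. Its first base lay 104 bases before the start of Sp5, 51 before Wnt11 and 71 before Wnt5b. The core CTTTG stood in 20 of the 43 promoters (46.5%) against 53.9% of all. Ror1 and Dkk2 had 1 core each, while Fzd4 had 0. The letters CAATAAA, the core that HOXA13 and HOXD13 prefer in binding assays, stood in 0 of the 43 and in 4.6% of all, on either strand. These are matches of letters in a short window and say nothing of binding.

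All 4 targeted Hox genes read lower in Hox13dKO, by 4.50-fold or more (limma, adjusted p at most 0.00778). Hoxd11 had the smallest fall and still read 348 and 454 in Hox13dKO against 1831 and 1745 in wild type. The source of this remaining signal was not tested. Log2 signals correlated at 0.962 and 0.958 within the groups and at 0.951 to 0.962 between them. The ratio of 5′ to 3′ actin signal, a sign of RNA integrity, was 0.473 on wild type replicate 1 and 0.728 to 0.771 on the other arrays. Signals are linear MAS5 units, and probe sets of different genes cannot be set against each other.

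Across the Wnt pathway 0 of the 45 tested genes passed an adjusted p of 0.05 (limma, Benjamini-Hochberg over all 27022 probe sets), against 0.207% of all probe sets (0.115% higher and 0.0925% lower in Hox13dKO) and 0.306% of genes by their brightest probe set. At an unadjusted p under 0.05 there were 7 (15.6%), against 6.26% of all probe sets and 7.25% of genes counted that way. Of these Ror1, Fzd2, Notum and Dkk2 had higher signal in Hox13dKO, 4 genes against a background of 3.8% of probe sets and 4.26% of genes. Fzd4, Rspo3 and Tcf7l1 had lower signal, 3 genes against 2.46% and 2.99%. The groups did not overlap for 19 of the 45 (42.2%), 13 with Hox13dKO higher and 6 with Hox13dKO lower. The same held for 34.6% of all probe sets (16.3% higher, 18.3% lower) and 37.2% of genes (17.1% higher, 20.1% lower). Differences were positive for 28 of the 45, against 48.3% of probe sets and 45.8% of genes. The median log2 difference, Hox13dKO minus wild type, was 0.063 over the 45 and -0.012 over all probe sets tested; the former ranged from 0.060 to 0.16 when 1 array was left out. For 29 of the 45 (64.4%) the 95% interval of the log2 difference lay within 1 unit of 0, that is, inside a 2-fold change, as it did for 54.7% of all probe sets and 65.7% of genes. These intervals are not adjusted for the number of genes.

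**Figure D1:**
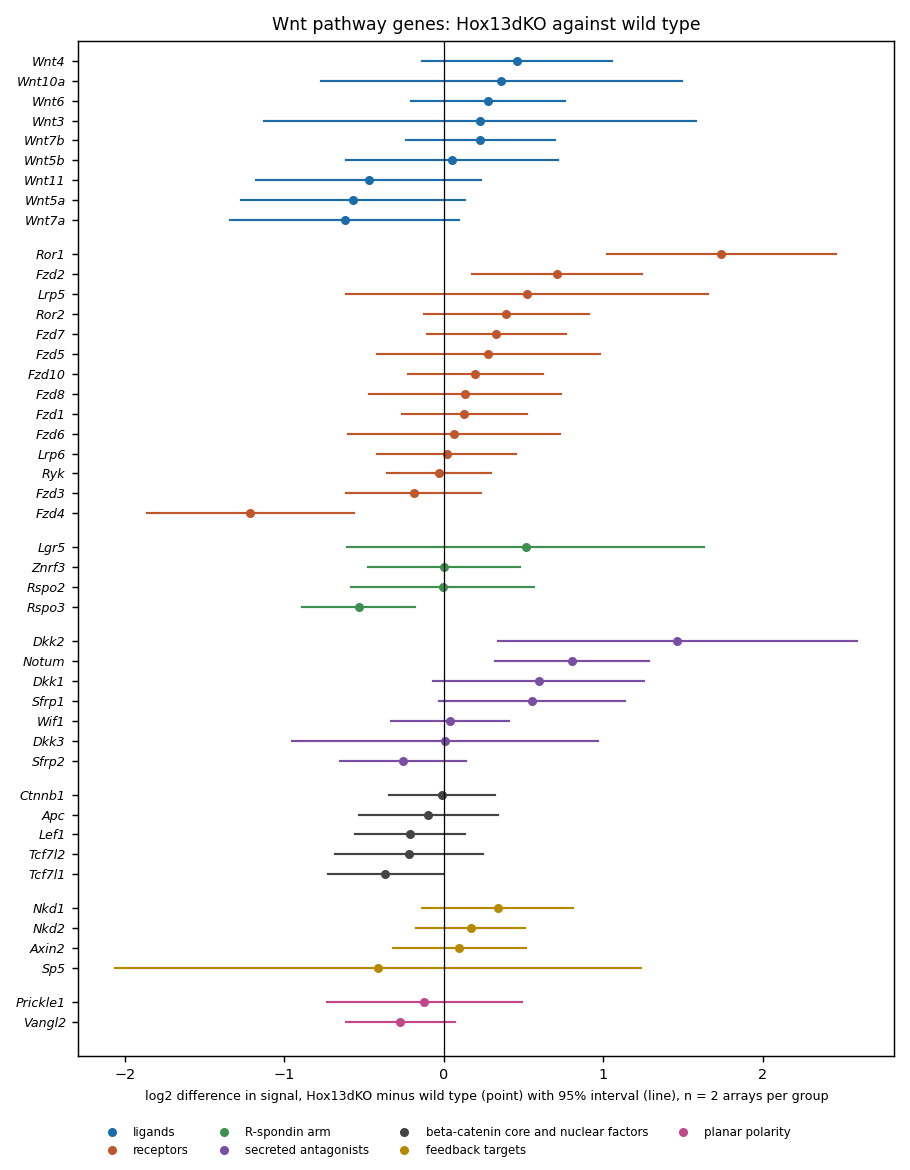
Log2 difference in signal (Hox13dKO minus wild type, x axis) for each of the 45 tested Wnt pathway genes, grouped and coloured by class, with its 95% interval from limma and n = 2 arrays per group. Ror1 at 1.74 and Fzd4 at -1.21 stand at the ends, and most intervals cross 0.

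Among the 9 ligands 0 passed the threshold, 6 had positive differences and the median was 0.23. When Hox13dKO replicate 2 was left out this median was 0.078, and 0.060 when wild type replicate 2 was. Wnt5a, the main ligand of the distal mesenchyme, read 5672 and 2816 signal units in Hox13dKO replicates 1 and 2 and 7037 and 4995 in wild type. The groups overlapped, since Hox13dKO replicate 1 lay above wild type replicate 2. The log2 difference was -0.57 ± 0.31 (SE; limma adjusted p = 0.883); leaving out Hox13dKO replicate 1 gave -1.07, leaving out replicate 2 gave -0.064, and leaving out wild type replicate 1 gave -0.32. A second Wnt5a probe set read 1873 and 1146 against 2233 and 2275 and separated the groups (-0.62 ± 0.22). Another read 2060 and 1548 against 1648 and 2988, with overlap (-0.31). Its dimmest tested probe set ran the other way (0.95 ± 0.92), and the mean over probe sets gave -0.14.

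Wnt7a, the dorsal ectodermal ligand, read 133 and 176 in Hox13dKO against 228 and 245 in wild type. Both Hox13dKO arrays lay below both wild-type arrays, and the difference was -0.62 ± 0.31 (SE; limma adjusted p = 0.861). Its second probe set, at 87.3 and 56.5 against 93.0 and 208, gave -0.99 ± 0.53, also without overlap but with narrowly separated arrays. Wnt11, a ligand of the non-canonical branch, gave -0.47 ± 0.31, with Hox13dKO replicate 1 at 227 and the other arrays between 408 and 442. For the remaining 6 ligands the log2 differences were positive. They ranged from 0.05 for Wnt5b to 0.46 for Wnt4, with Wnt10a at 0.36, Wnt6 at 0.28, and Wnt3 and Wnt7b at 0.23 each. Groups did not overlap for Wnt3, Wnt4 and Wnt7b. Several of these ligands are ectodermal, and in whole tissue fewer cells of a type and less RNA per cell cannot be told apart. Of 13 limb ectoderm markers fixed as a list, 9 had positive differences and the median was 0.19. Their summed signal was 10094 and 12747 in Hox13dKO against 10699 and 9536 in wild type, and none was below the floor on all arrays. Its part in the ligand values was not tested.

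Among the receptors, 14 of 15 were tested, 11 had positive differences, 0 passed and the median was 0.17. This median was 0.072 when Hox13dKO replicate 1 was left out, 0.32 when replicate 2 was, and 0.11 when wild type replicate 2 was. Ror1, a tyrosine kinase receptor for Wnt5a, read 306 and 349 in Hox13dKO against 89.8 and 107 in wild type. Both Hox13dKO arrays thus stood far above both wild-type arrays, whose spread was small beside the gap. The log2 difference was 1.74 ± 0.31 (SE), 3.34-fold, with a 95% interval of 1.02 to 2.46 (limma adjusted p = 0.109). This was the lowest adjusted p of the 45 genes. It passed the threshold in 4 of its 14 alternative settings, among them median centring and leaving out either wild-type array, and adjusted p ranged from 0.00214 to 0.676 over the 14. Its second tested probe set, at 34.2 and 74.4 against 34.6 and 63.2, overlapped and gave 0.11 ± 0.71. With the mean over probe sets the difference was 0.93 (adjusted p = 0.676).

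Ror2, the paralogue that transmits Wnt5a signals to the developing digits, read 1372 and 1129 in Hox13dKO against 1168 and 770 in wild type, with overlap. Its difference was 0.39 ± 0.22 (SE; 95% interval -0.12 to 0.91). Ryk, an atypical Wnt receptor with an inactive kinase, differed by -0.030 ± 0.14, with an interval of -0.35 to 0.29.

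Fzd4 was the receptor with the lowest signal relative to wild type. It reads Norrin as well as Wnts and is best known from blood vessels. It read 244 and 159 in Hox13dKO against 465 and 448 in wild type, with no overlap and the wider spread in Hox13dKO. The log2 difference was -1.21 ± 0.28 (SE), 2.32-fold, with an interval of -1.86 to -0.56 (limma adjusted p = 0.256). Its second probe set gave -0.52 ± 0.43, with overlapping groups. Of 6 endothelial markers, 6 had positive differences, with a median of 0.34. Their summed signal was 2621 and 3372 in Hox13dKO against 2304 and 2355 in wild type. The groups overlapped for Pecam1, Tek, Tie1 and Emcn and did not for Cdh5 and Kdr. The part of these markers in the Fzd4 value was not tested.

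Fzd2, a widely expressed mesenchymal Frizzled, read 5875 and 3477 in Hox13dKO against 2956 and 2579 in wild type. The groups did not overlap, and Hox13dKO replicate 1 was the high array. Its difference was 0.71 ± 0.23 (SE; limma adjusted p = 0.567); leaving out Hox13dKO replicate 1 gave 0.33 and leaving out replicate 2 gave 1.09. Its other 2 probe sets separated the groups too. They read 4102 and 3778 against 2269 and 2843 (0.63 ± 0.15, adjusted p = 0.275), and 3551 and 3226 against 1868 and 2300.0 (0.71 ± 0.15, adjusted p = 0.207; limma). Fzd2 was thus measured as higher by 3 probe sets, none past the threshold. The 3 share the transcript and the RNA of the same arrays, so they are no independent samples. With the mean over probe sets Fzd2 had the lowest adjusted p of the 45 genes (limma, 0.0922), also not past the threshold.

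At their brightest probe sets the other Frizzled genes differed less. Fzd7 differed by 0.33, Fzd5 by 0.28, Fzd10 by 0.20, Fzd8 by 0.14, Fzd1 by 0.13, Fzd6 by 0.063 and Fzd3 by -0.19. Groups overlapped in all of these except Fzd8. The second probe set of Fzd8 gave 0.95 ± 0.61 (SE), also without overlap. Other tested probe sets gave 0.65, 0.017 and -0.0082 for Fzd3, 0.099 for Fzd6, -0.10 for Fzd1 and -0.17 for Fzd7. The coreceptors Lrp5 and Lrp6, which commit the signal to beta-catenin, differed by 0.52 ± 0.49 and 0.019 ± 0.19 (SE). The Lrp5 probe set was dim, between 59.4 and 129, and its interval reached from -0.61 to 1.65. Fzd9 was too dim to be tested, at 59.9 and 33.1 in Hox13dKO against 23.5 and 11.5 in wild type.

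In the R-spondin arm, secreted R-spondins bind Lgr receptors and take the ubiquitin ligases Znrf3 and Rnf43 away from Frizzled, which raises sensitivity to Wnt. Of its 4 tested genes 0 passed, 2 had positive differences and the median was -0.0015, with a range of -0.18 to 0.17 when 1 array was left out. Rspo3 read 866 and 939 in Hox13dKO against 1334 and 1275 in wild type. The arrays were close within each group and the groups did not overlap. The difference was -0.53 ± 0.15 (SE), 1.45-fold lower (limma adjusted p = 0.444). The other Rspo3 probe set was too dim to be tested and ran the opposite way. It read 62.6 and 53.3 in Hox13dKO against 18.0 and 38.8 in wild type. Rspo2, the R-spondin needed for the apical ridge and digits, read 465 and 689 against 650 and 498 and overlapped (-0.0064 ± 0.25). Znrf3 differed by 0.0035 ± 0.21, and Lgr5, at 91.7 and 104 against 85.1 and 54.8, by 0.51 ± 0.49. Rnf43 and Rspo4 were below the filter. Rnf43 read 50.8 and 49.98 in Hox13dKO against 3.31 and 12.9 in wild type, both wild-type values under the floor of 14.1. Rspo4 read 68.9 and 24.0 against 14.0 and 20.9.

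Secreted antagonists had the highest class median, 0.55, with 6 of 7 differences positive and 0 past the threshold. In 4 of the 7, Dkk1, Dkk2, Notum and Sfrp1, both Hox13dKO arrays lay above both wild-type arrays (57.1%), against 16.3% of all probe sets and 17.1% of genes. The members were chosen with earlier results known, so this share is a description. The class median was 0.28 when wild type replicate 1 was left out, 0.32 when replicate 2 was, and 0.30 with the mean over probe sets.

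Notum, an enzyme that removes the lipid from Wnt proteins and is itself a Wnt target, read 536 and 587 in Hox13dKO against 304 and 340.1 in wild type. The gap exceeded the spread within either group. The log2 difference was 0.80 ± 0.21 (SE), 1.75-fold, with an interval of 0.32 to 1.29 (limma adjusted p = 0.334). Dkk2, which binds Lrp5 and Lrp6, read 120 and 264 in Hox13dKO against 68.9 and 60.2 in wild type. Its Hox13dKO arrays differed from each other by more than replicate 1 differed from wild type. Its difference was 1.47 ± 0.49 (adjusted p = 0.591), and leaving out Hox13dKO replicate 2 gave 0.89, leaving out replicate 1 gave 2.04.

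Dkk1, the antagonist whose loss in mice alters the limb, read 375 and 487 in Hox13dKO against 227 and 352 in wild type. The ranges touched closely without overlap, and the difference was 0.60 ± 0.29 (SE; limma adjusted p = 0.853). Leaving out wild type replicate 1, the array with the low actin ratio, gave 0.28, and leaving out wild type replicate 2 gave 0.91. Its second probe set gave 0.68 ± 0.48 in the same direction. Sfrp1, a decoy that binds Wnt through a Frizzled-like domain, read 517 and 422 against 373 and 271, also without overlap (0.55 ± 0.25, or 0.32 when wild type replicate 2 was left out). Of its 4 other probe sets, 2 gave 0.98 and 0.88 and 2 gave -0.17 and -0.76. Sfrp2, its relative, was the 1 antagonist with a negative difference. It read 2409 and 1958 in Hox13dKO against 2314 and 2911 in wild type, with overlap (-0.26 ± 0.17). When 1 array was left out it ranged from -0.42 (wild type replicate 1) to -0.092 (wild type replicate 2). Wif1, another Wnt-binding protein, differed by 0.039 ± 0.16 and Dkk3 by 0.0084 ± 0.42.

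**Figure D2:**
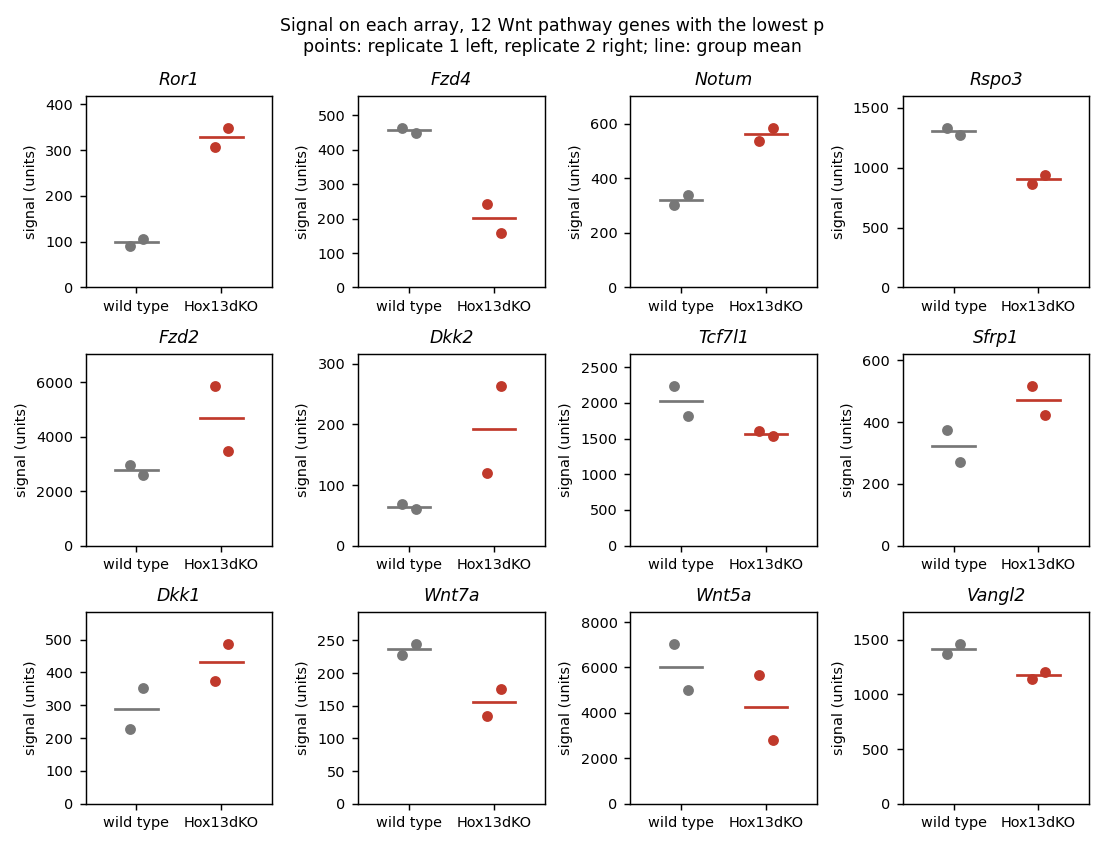
Signal in MAS5 units (y axis, linear from 0) on each of the 4 arrays for the 12 Wnt pathway genes with the lowest p, with replicate 1 at the left and replicate 2 at the right of each group and a line at the group mean. The Ror1, Notum and Rspo3 arrays lie close within groups, while the Hox13dKO arrays of Dkk2, Wnt5a, Fzd2 and Fzd4 stand apart from each other.

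In the beta-catenin core and its nuclear partners, 5 of 6 genes were tested, 0 passed, and all 5 differences were negative and small (median -0.21). Leaving out Hox13dKO replicate 1 gave a median of -0.34, leaving out replicate 2 gave -0.085, and leaving out wild type replicate 1 gave -0.11. The sign of Ctnnb1 turned after median centring (0.024) and when Hox13dKO replicate 1 (0.12) or wild type replicate 2 (0.043) was left out. Ctnnb1, beta-catenin itself, read 20455 and 24716 in Hox13dKO against 21826 and 23557 in wild type, and the wild-type values lay inside the Hox13dKO range. Its difference was -0.012 ± 0.14 (SE), with an interval of -0.34 to 0.32. Its 2 other probe sets gave 0.057 and 0.090, both with overlap. Apc, the scaffold of the complex that degrades beta-catenin, differed by -0.096 ± 0.19. Its other tested probe sets gave -0.13 with overlap and 0.19 without overlap. The sign of Apc turned in 1 of its 14 alternative settings (0.13). Tcf7l1, mostly a repressor of Wnt targets, read 1599 and 1537 against 2240 and 1821, without overlap (-0.37 ± 0.16; limma adjusted p = 0.787), and leaving out wild type replicate 1 gave -0.22. Its second probe set gave -0.20 with overlap. Lef1, the activating partner and a known Wnt-responsive gene in limb mesenchyme, read 1780 and 1495 against 1879 and 1898, without overlap (-0.21 ± 0.15). Tcf7l2 differed by -0.22 ± 0.20, and its other probe sets by 0.25 and, at dim signals, -1.14. For each of the 5 the 95% interval lay within 1 log2 unit of 0.

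Of the 4 feedback targets, whose transcripts serve as readouts of beta-catenin activity, 0 passed and the median was 0.13, or 0.048 when Hox13dKO replicate 1 was left out. Axin2, the standard readout, read 1192 and 914 in Hox13dKO against 967 and 983 in wild type. The wild-type arrays lay between the Hox13dKO arrays, and the difference was 0.098 ± 0.18 (SE), with an interval of -0.32 to 0.51. Its dimmer probe set gave 0.38 ± 0.41. Nkd1 and Nkd2, which bind Dishevelled and dampen the signal, separated the groups narrowly. Nkd2 read 1247 and 1280.3 against 1107 and 1140.4 (0.17 ± 0.15), and Nkd1 read 526 and 667 against 470 and 467 (0.34 ± 0.21). Other probe sets of Nkd1 gave 0.33, 0.085 and -0.30, and of Nkd2 0.13, 0.056 and -0.24. Sp5, a direct target whose promoter carries the full motif, was dim, at 66.5 and 30.3 against 88.7 and 40.04. Its interval, -2.06 to 1.24, was the widest of the 45. Lef1 and Notum, listed in other classes, respond to Wnt as well; their differences were -0.21 and 0.80.

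In planar polarity, which aligns cells within a tissue and in the limb lies downstream of Wnt5a and Ror2, 0 of 2 genes passed. Their median, -0.20, was -0.38 when Hox13dKO replicate 1 was left out, -0.012 when replicate 2 was, and -0.12 when wild type replicate 1 was. Vangl2, the core membrane protein of the system, read 1145 and 1204 in Hox13dKO against 1374 and 1462 in wild type. The groups did not overlap (-0.27 ± 0.15 SE; limma adjusted p = 0.883). Its 2 other probe sets gave 0.14 and 0.13, the opposite direction, and the mean over probe sets gave a difference of -0.00037. Prickle1, its cytoplasmic partner, read 1795 and 1023 against 1683 and 1292, with the wild-type arrays inside the Hox13dKO range (-0.12 ± 0.26). Its sign turned when Hox13dKO replicate 2 (0.28) or wild type replicate 1 (0.069) was left out.

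Probe sets of the same gene often differed in direction. The 48 genes had 110 probe sets, 93 of them tested, and 0 passed the threshold. For 30 genes at least 1 further probe set was tested besides the brightest. In 16 of the 30 every other probe set had the same sign, and in 14 some had the opposite sign. Over single probe sets 30 of 48 shared the sign of the brightest. Wnt7a, Wnt4, Fzd2, Fzd4 and Dkk1 were among those whose tested probe sets ran one way, and Vangl2, Sfrp1 and Tcf7l2 among those that split. Fzd4 and Wnt7a each had a further probe set too dim to be tested. These had overlapping groups and ran the opposite way (0.37 and 0.47).

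**Figure D3:**
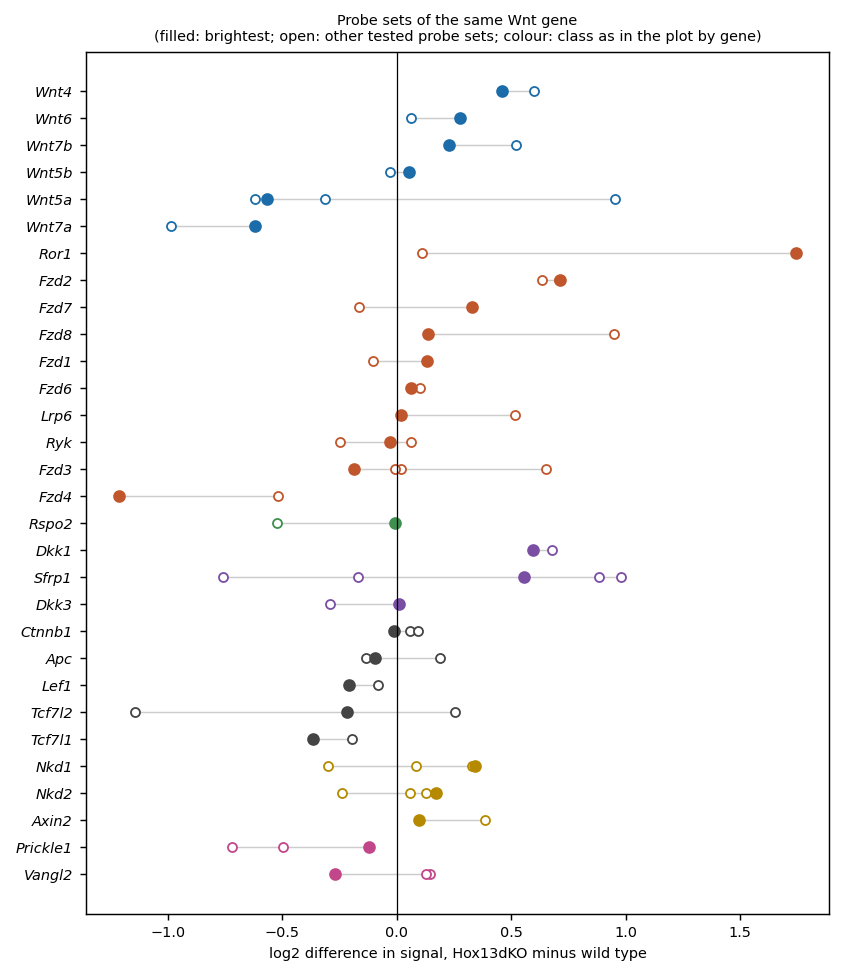
Log2 difference (Hox13dKO minus wild type, x axis) for every tested probe set of the 30 Wnt pathway genes with more than 1, with the brightest filled and the others open. The 3 Fzd2 probe sets lie together between 0.63 and 0.71, whereas those of Sfrp1 and Tcf7l2 fall on both sides of 0.

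A further 75 genes of Wnt production, transport, transduction and response were followed as a list. Probe sets were found for 73 and 60 were tested. Of these 0 passed the threshold in either direction (limma), 34 had positive differences and the median was 0.047. At an unadjusted p under 0.05 there were 12 (20%), 11 with higher signal in Hox13dKO and Draxin with lower signal (-0.72 ± 0.30 SE). The shares over all features were 6.26% of probe sets and 7.25% of genes, 4.26% of genes higher and 2.99% lower. The 3 with the lowest adjusted p lay under 0.10. Daam2, a formin that links Dishevelled to actin, read 1044 and 994 in Hox13dKO against 503 and 395 in wild type (1.19 ± 0.19, limma adjusted p = 0.0819). Its second probe set gave 2.33 ± 0.71.

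Dact1, a Dishevelled-binding modulator of both branches, read 971 and 944 in Hox13dKO against 474 and 435 in wild type. Both groups were tight and the gap was wide (1.08 ± 0.18 SE, limma adjusted p = 0.0834). Sostdc1, a secreted Wnt and BMP antagonist, read 719 and 1189 against 341 and 235 (1.71 ± 0.29, limma adjusted p = 0.0976), and its second probe set gave 1.51 ± 0.29. Fgf8, the ridge growth factor downstream of Wnt3 and beta-catenin, read 870.4 and 1301 against 604 and 592 (0.83 ± 0.22). Tle1, a Groucho corepressor, differed by 0.65 ± 0.17 but by 0.046 at its other probe set, and Gpc3, a heparan sulfate proteoglycan, by 0.65 ± 0.21. Groups did not overlap for the brightest probe set of any of these 6, which were picked by their low p; over all genes 37.2% did not overlap.

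Markers of the cell types in a limb bud were summed beside these values. Each sum, here and above, adds linear signals of different genes, so its brightest probe sets weigh most. In the muscle sum Actc1 alone read 880 and 2252 in Hox13dKO against 116 and 92.7 in wild type. Mesenchyme markers, 9 of 9 tested, had a median difference of -0.12, and their summed signal was 39745 and 32109 in Hox13dKO against 35183 and 34454 in wild type. Prrx1 and Twist1 of this list read well above the floor of 14.1 units on every array. The list is one of limb mesenchyme and not of the autopod alone. Muscle markers had summed signals of 1445 and 3352 in Hox13dKO against 367 and 375 in wild type, with 5 of 6 higher, a median of 1.605 and 1 past the threshold, Actc1 (limma adjusted p = 0.0182). Hox13dKO replicate 2 had the highest muscle sum. Of the 12 Wnt genes with the lowest p, Ror1, Fzd4, Notum, Dkk2, Tcf7l1, Dkk1 and Wnt5a lay further from wild type on that array. Rspo3, Fzd2, Sfrp1, Wnt7a and Vangl2 lay further from it on Hox13dKO replicate 1. The part of the muscle markers in these values was not tested. Apical ridge markers had 5 of 9 positive differences and a median of 0.54, with sums of 3400 and 3943 against 2838 and 3188; Fgf8 and Dlx5 are in this list and among the further Wnt genes, as is Sp8. Msx1 and Twist1 are likewise in the mesenchyme list and among those genes. Erythroid (4 tested), macrophage (5) and nerve (3) markers had medians of 0.23, 0.50 and -0.54. Erythroid sums were 91181 and 106084 against 75167 and 97989, macrophage sums 1456 and 1517 against 1097 and 1332, and nerve sums 151 and 346 against 375 and 411.

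**Figure D4:**
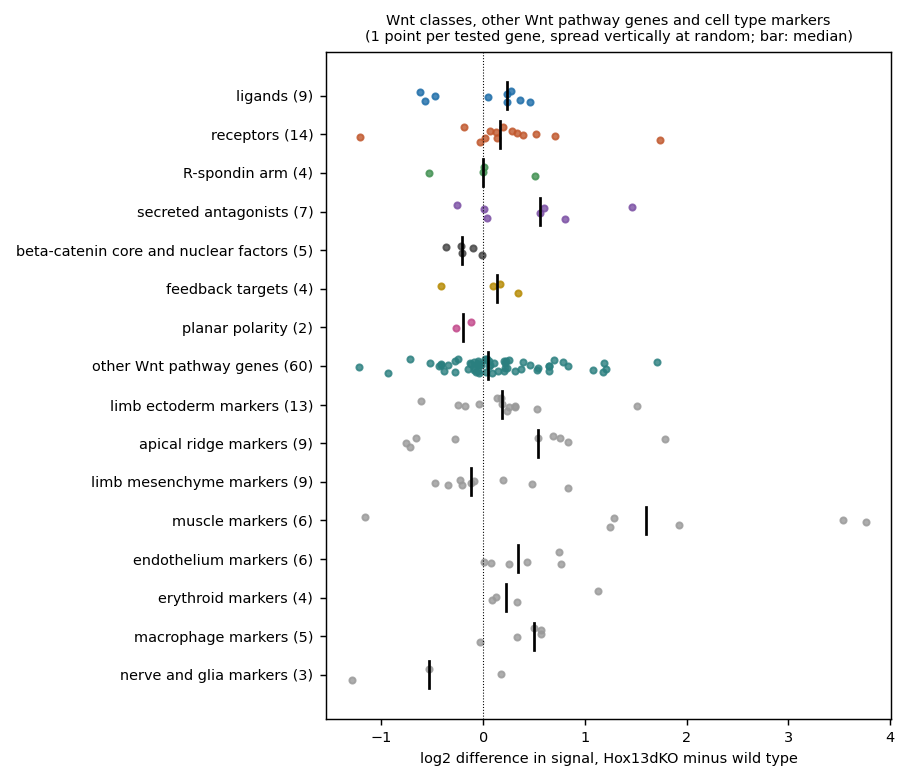
Log2 difference (Hox13dKO minus wild type, x axis) of each tested gene, 1 point per gene, for the 7 Wnt classes, the 60 further Wnt pathway genes and 8 lists of cell type markers, with the median as a bar and the number of genes in brackets. Secreted antagonists have the highest median of the Wnt classes, 0.55, and muscle markers the highest of all lists, 1.605.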

How the data were processed

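The values are intensity per probe set as the authors deposited them, on a linear scale and made with MAS5 per the submitters' processing notes, 1 array per sample and 2 per group. The MAS5 version is not given in sources used here. Their 2% trimmed mean was 500.003 on each array. Detection calls were not used here, so presence of a transcript cannot be called, and the number of arrays limits precision. P-values set each difference against the spread between these samples, moderated by a spread shared over all tested probe sets.

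Of 45101 probe sets, 34958 carried 1 gene symbol, 932 several and 9211 none; 34754 of the first were found in RefSeq, with 0 symbols updated. After leaving out 64 control probe sets, signals under the 20th percentile (14.1 units) were set to that value before taking log2. Probe sets with a mean at or above the 40th percentile (geometric mean 39.6) were tested with limma 3.58.1 in R 4.3.3 (lmFit, eBayes with trend, two-sided, 2 residual and 6.05 prior degrees of freedom). The steps were tested on simulated data. Each array is printed for the 12 genes with the lowest p and the brightest of each class; other genes with array values were named after their values were seen. Of the further Wnt genes, those with the 6 lowest p are named; Draxin was named after its value was seen. Genes and lists were chosen with earlier results of these data known. Alternatives were median centring or quantile normalization, a pseudocount of 16, no floor, no or a stricter filter (60th percentile), no trend, the replicate number as a block, an adjusted p of 0.10, the mean over probe sets, no probe sets with the suffix x, s or a, and leaving out each array. Figures were drawn with matplotlib 3.10.9.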

Additional observations from a re-analysis of the deposited data

How the results depend on the processing

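The count of Wnt pathway genes past the threshold was 0 and became 1 (Ror1) after median centring; over the fits without 1 array it ranged from 0 to 1, Ror1 passing when either wild-type array was left out. With the replicate number as a block it was 4, Ror1 (limma adjusted p = 0.0130), Fzd4 (0.0332), Fzd2 (0.0201) and Wnt5a (0.0417), and 418 over all probe sets. The labels do not say that a number marks a shared litter or day. Same-numbered arrays deviated together with a correlation of 0.198, which with 2 arrays per group is 1 value for both pairs, so whether the numbers pair the samples is not known; they were not treated as pairs. The count stayed 0 with quantile normalization, no floor, a pseudocount, no filter, the stricter filter, no trend, an adjusted p of 0.10, the mean over probe sets and without suffixed probe sets. Over all probe sets the count of 56 became 213 after median centring, 0 with no filter (3159 at an unadjusted p under 0.05), 1 with no trend, 111 at an adjusted p of 0.10, and 11 to 525 without 1 array. The ligand median of 0.23 became 0.051 with the stricter filter, which kept 7 ligands, and ranged from 0.060 to 0.26 without 1 array. The antagonist median of 0.55 became 0.297 with the stricter filter, which kept 6, and 0.297 with the mean over probe sets, and ranged from 0.28 to 0.43 without 1 array. The median over all tested members ranged from 0.060 to 0.16 without 1 array. Ctnnb1 turned positive after median centring (0.024) and with the mean over probe sets (0.045) and ranged from -0.15 to 0.12 without 1 array; Prickle1 ranged from -0.53 to 0.28. Except where the setting left genes out, the cause was not tested. Fits without 1 array assume that the lone array varies like the other group. Dim probe sets such as Sp5, Wnt3 and Lrp5 have wide intervals, and differences of under 2-fold were not detectable there. Brighter probe sets with differences above 2-fold did not pass either. Dact1 differed by 2.11-fold (limma adjusted p = 0.0834), Daam2 by 2.28-fold (0.0819) and Ror1 by 3.34-fold (0.109). The count of 0 therefore does not by itself exclude 2-fold changes in the other genes.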
